A study of Mus musculus with 16 samples.

Results

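Levels of 7 genes that mark astrocytes (Gfap, Aqp4, Aldh1l1, S100b, Slc1a2, Slc1a3 and Gja1) and of 3 nuclear factor I (NFI) transcription factor genes (Nfia, Nfib and Nfix) were measured in cultured mouse cortical neural progenitor cells (NPCs). The 10 genes were taken by name, with no rule on their values, from the 49166 genes of the RNA-seq libraries. Earlier results of these data were known at that point. Of the 10, 9 were among the 16971 genes with enough counts to be tested. The cells came from the cortex of E18.5 mouse embryos and were kept in a medium with FGF-2, EGF and heparin. All cells carried a lentivirus that expresses Cas9, the enzyme that cuts DNA at a guide's target, and were expanded after 48 h under puromycin. Control cells, labelled WT, received Cas9 alone. Cells labelled KO received Cas9 with a guide to Chd1, the gene of a chromatin remodelling enzyme, and are a selected population that the labels do not call clonal. WT cells were given the solvent DMSO (WT DMSO). KO cells were given DMSO (KO DMSO), 10 nM of the androgen dihydrotestosterone for 24 h (KO DHT), or 10 µM of the androgen receptor antagonist enzalutamide starting 30 min before the same DHT dose (KO DHT+ENZ). Each group had 4 biological replicates. Embryos of 2 litters were used, with no label that ties a replicate to its litter. No WT cells with DHT and no cells with enzalutamide alone are among the samples used here.

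Astrocytes are the glial cells that clear glutamate, buffer ions and water and support synapses, and in the cortex they arise from the same radial glial progenitors that first make neurons. Slc1a2 (GLT-1) and Slc1a3 (GLAST) encode the 2 main astrocytic glutamate transporters, and Slc1a3 is already present in radial glia. Aldh1l1 encodes a folate enzyme, S100b a calcium-binding protein, Gja1 the gap junction protein connexin 43, Aqp4 the water channel of astrocyte endfeet, and Gfap the intermediate filament protein of mature and reactive astrocytes. NFI proteins bind DNA as dimers at palindromic sites and are needed for progenitors to switch from making neurons to making glia; Nfia in particular takes part in the onset of gliogenesis and of Gfap expression.

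Libraries held 31777910 to 36941704 estimated counts, except WT DMSO replicate 1 with 20161421. That library also had the lowest share of counts from mitochondrial genes, 1.35%, and stood apart from the other 15 on the second principal component. The 4 KO DHT+ENZ libraries had the highest mitochondrial shares, 4.31% to 4.5%, against 2.9% to 3.74% in the remaining 11. Chd1 itself, the targeted gene, had 66.7 ± 5.73 counts per 1000000 counts of the library (CPM; mean ± SD, n = 4) in WT DMSO and 67.3 ± 2.68 in KO DMSO. A Cas9 cut can disrupt a protein without lowering its transcript, so these levels do not check the labels. The 16 listed progenitor markers summed to between 6882 and 8599 TPM (transcripts per 1000000 transcripts, a level that takes account of transcript length). Fabp7 (4346 TPM on average) and Vim (1839) made up most of this sum, and Vim is also on the list of reactive astrocyte genes used below. Nes averaged 579 and Sox2 161 TPM, whereas Hopx (7.85), Prom1 (2.01) and Hes5 (0.88) were low. The microglial genes C1qa and C1qb were at 0 in all 16 libraries, and the 9 listed microglial markers summed to 2.33 to 5.95 TPM. The 7 endothelial markers summed to 3.0 to 7.07 TPM, with Cldn5 at 0 in 14 libraries. The 8 pericyte, meningeal and fibroblast markers summed to 0.278 to 2.9 TPM. Higher than these were the 6 ependymal markers, which summed to 22.7 to 32.0 TPM, with Foxj1 at 19.3 TPM on average. The neuron markers Dcx, Stmn2 and Neurod6 averaged under 1 TPM, whereas Map2 averaged 348, Tubb3 37.6, Snap25 3.77 and Gad1 3.47 TPM. Olig1 (859 TPM) and Olig2 (493 TPM) were high, and Cnp (42.4 TPM) and Cspg4 (14.1 TPM) were present. The oligodendrocyte genes Sox10 and Gpr17 were at 0 in 13 and 15 libraries. In RNA pooled from many cells, a lower level can reflect fewer cells of a type or less RNA per cell, and these cannot be told apart.

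The 10 genes differed widely in level, with the progenitor-associated transporter Slc1a3 at the top and the mature-astrocyte genes Gfap and Aqp4 at the bottom. On the TPM scale, averaged over the 16 libraries, Slc1a3 stood at 370 (282 to 404). Aldh1l1 followed at 74.0 TPM (23.9 to 122), then Nfix at 66.0 (50.1 to 84.6), Nfib at 64.3 (43.6 to 89.6) and Gja1 at 51.7 (39.0 to 59.0). Nfia stood at 18.7 TPM (14.8 to 24.1), S100b at 11.5 (7.07 to 17.6) and Slc1a2 at 8.73 (4.36 to 13.3). Slc1a2, the transporter that dominates in mature cortex, was thus far below its relative Slc1a3 in each library. Gfap stood at 1.70 TPM (0.505 to 3.66) and Aqp4 at 0.114 TPM (0 to 0.375). Steps in this order with ranges that did not overlap were Slc1a3 over Aldh1l1, Gja1 over Nfia, Slc1a2 over Gfap, and Gfap over Aqp4. The other neighbours overlapped: Aldh1l1 exceeded Nfix in 8 of 16 libraries, Nfix exceeded Nfib in 9, and Nfib exceeded Gja1 in 12. Nfia exceeded S100b in 15 libraries, and S100b exceeded Slc1a2 in 11. The remaining member of the NFI family, Nfic, stood at 17.3 TPM (11.9 to 23.9), close to Nfia.

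**Figure D1:**
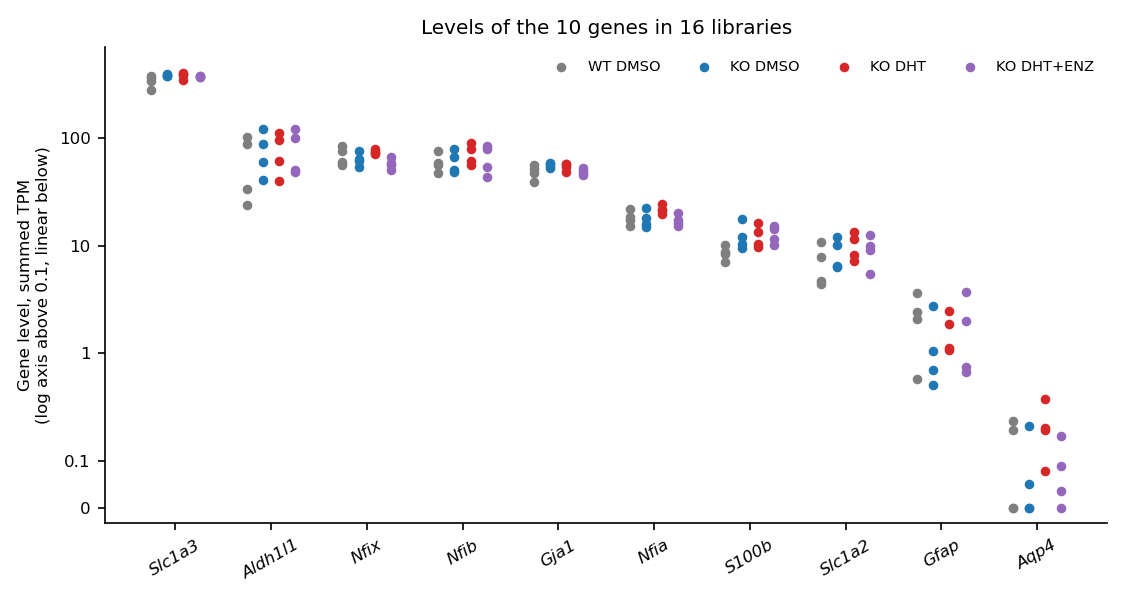
Level of each of the 10 genes in each library (TPM summed over the gene's transcripts; the vertical axis is logarithmic above 0.1 and linear below it), coloured by group and ordered by the mean over 16 libraries. Slc1a3 lies alone at the top (282 to 404 TPM) and Gfap and Aqp4 lie below 4 TPM in all groups.

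Single transcripts carried most of the signal of the abundant genes. Slc1a3-201, a coding transcript of 4163 bases, held 91.5% to 97.5% of the gene's TPM in each library. Gja1-201 held 98.0% to 99.95%, and S100b was represented by 1 transcript of 1484 bases. Aldh1l1-201 (3052 bases, coding) held 81.6% to 93.4%. Nfix-204, a coding transcript of 5476 bases, held 61.6% to 82.5% of Nfix. Nfia-202, the 9526-base coding form, held 40.8% to 71.4% of Nfia, and Nfib-202, of 8429 bases, held 32.8% to 78.5% of Nfib. The level of Gfap rests on few reads, 30 to 66 estimated counts per library. Its main coding transcript, Gfap-201, averaged 36.98 counts and 0.659 TPM, while the short noncoding Gfap-203 of 356 bases averaged 1.62 counts and, because it is short, 0.929 TPM. The spread of Gfap in TPM is therefore that of a handful of reads on a short transcript. The division of reads among overlapping transcripts is an estimate, and comparisons below use counts summed over each gene.

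Upstream sequence was matched by symbol for 8 of the 10 genes, in 11 windows of 300 bases (250 before and 50 after a start site) from RefSeq on build GRCm38.p6; Aqp4 and Nfib were not matched. The windows were searched on both strands for the full NFI palindrome TTGGCNNNNNGCCAA, the shorter NFI letters TTGGCA, the STAT letters TTCNNNGAA, the androgen response element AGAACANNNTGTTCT and CCAAT. STAT proteins carry the cytokine signal that acts with NFI proteins at glial genes. No member window held the full NFI palindrome or the androgen response element, which are rare in any case: 0.0365% and 0.00913% of all 32851 RefSeq windows hold them. The 3 windows below are shown because they hold a match to the STAT letters (Gfap and Slc1a3) or to the shorter NFI letters (S100b), in capitals. The STAT letters occur in 8.3% of all windows and the shorter NFI letters in 14.1%. In S100b they overlap a CCAAT box read on the other strand, a motif in 37.4% of windows. One of 4 Nfix windows also held the STAT letters. A match describes letters only, and the known STAT element of the Gfap gene lies further upstream than this window. The windows are Gfap on the minus strand of chr11:102897151-102897450, Slc1a3 on the minus strand of chr15:8710758-8711057, and S100b on the plus strand of chr10:76253586-76253885.
Gfap: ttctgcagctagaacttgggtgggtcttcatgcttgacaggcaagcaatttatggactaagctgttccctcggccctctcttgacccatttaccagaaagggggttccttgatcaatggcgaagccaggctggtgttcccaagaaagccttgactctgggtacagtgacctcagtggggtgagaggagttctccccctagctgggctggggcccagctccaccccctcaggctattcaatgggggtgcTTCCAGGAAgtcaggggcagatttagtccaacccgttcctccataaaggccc
Slc1a3: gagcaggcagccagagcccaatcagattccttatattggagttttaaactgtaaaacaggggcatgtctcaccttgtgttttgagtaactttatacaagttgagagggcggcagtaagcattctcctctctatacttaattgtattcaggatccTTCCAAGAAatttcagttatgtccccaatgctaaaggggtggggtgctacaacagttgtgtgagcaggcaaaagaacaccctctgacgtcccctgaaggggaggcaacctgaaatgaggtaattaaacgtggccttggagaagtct
S100b: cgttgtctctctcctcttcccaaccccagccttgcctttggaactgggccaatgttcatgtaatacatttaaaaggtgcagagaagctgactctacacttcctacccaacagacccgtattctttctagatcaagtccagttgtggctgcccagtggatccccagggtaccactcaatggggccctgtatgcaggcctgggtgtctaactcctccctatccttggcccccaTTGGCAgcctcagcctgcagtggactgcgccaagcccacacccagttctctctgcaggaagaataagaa

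KO DMSO was set against WT DMSO to ask whether targeting Chd1 alone goes with a change in these genes. Slc1a2, Aldh1l1, Slc1a3, S100b and Gja1 had higher mean levels in KO DMSO, but no member passed the test, and the 3 NFI genes were close to level. None of the 9 tested members was called by edgeR's quasi-likelihood test at an adjusted p under 0.05, against 0.0% of all tested genes. At an unadjusted p under 0.05 there were 5 members, all higher in KO DMSO, against 3.27% of all genes higher and 7.83% in either direction. The median log2 fold change of the 9 members was 0.18, and that of all genes was 0.00. The test compares groups within replicate numbers. Without that pairing, 1 of the 9 members (S100b) was at an unadjusted p under 0.05, as were 508 of all 16971 tested genes.

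Slc1a2, the adult glutamate transporter, had 51.1, 35.3, 39.7 and 73.6 CPM in WT DMSO replicates 1 to 4 and 73.1, 44.8, 53.4 and 77.5 CPM in KO DMSO. The groups overlapped, and KO DMSO was the higher of the pair in 4 of 4 replicates, as were 6.24% of all genes. The log2 fold change was 0.33 (SE 0.10; edgeR adjusted p = 0.513). Slc1a3, the radial glial transporter, had 763, 1020, 1067 and 940 CPM in WT DMSO and 995, 1131, 1175 and 973 CPM in KO DMSO. It too was higher in 4 of 4 pairs, by 0.18 on the log2 scale (SE 0.06; edgeR adjusted p = 0.536), with its largest pair difference, 0.38, in replicate 1. Aldh1l1 had 177, 50.8, 77.3 and 177 CPM in WT DMSO and 169, 88.8, 133 and 221 CPM in KO DMSO. Its spread between replicates was wider than the difference between the groups, and the pairs differed by -0.07, 0.81, 0.78 and 0.32 on the log2 scale. The log2 fold change was 0.44 (SE 0.14; edgeR adjusted p = 0.513). With no filter on low counts it was 0.46 with an edgeR adjusted p of 0.0336, the only setting of those tried in which a member was called in a comparison of groups. Without WT DMSO replicate 1 it was 0.61 with an edgeR adjusted p of 0.0556.

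S100b had 7.67, 6.18, 7.97 and 8.03 CPM in WT DMSO and 8.40, 11.0, 16.4 and 7.89 CPM in KO DMSO. Replicates 2 and 3 carried the difference, 0.83 and 1.03 on the log2 scale, while replicates 1 and 4 differed by 0.13 and -0.02. The fitted log2 fold change was 0.48 (SE 0.17; edgeR adjusted p = 0.544). Gja1, the connexin gene, had 80.5, 117, 108 and 96.5 CPM in WT DMSO and 109 to 119 CPM in KO DMSO, a log2 fold change of 0.19 (SE 0.07; edgeR adjusted p = 0.587). Its lowest value was in WT DMSO replicate 1, and without that library the value was 0.12. Gfap had 2.14, 1.02, 1.77 and 1.69 CPM in WT DMSO and 1.09, 0.94, 1.96 and 1.15 CPM in KO DMSO, a log2 fold change of -0.38 (SE 0.22; edgeR adjusted p = 0.709). Among the NFI genes, the log2 fold changes were 0.02 (95% interval -0.16 to 0.19) for Nfia, -0.01 (-0.23 to 0.21) for Nfib and -0.09 (-0.28 to 0.11) for Nfix. Among the 8 DMSO libraries, WT DMSO replicate 1 had the lowest Nfia (78.7 CPM) and Nfib (216 CPM) and the highest Nfix (232 CPM). Without that library, which stood apart, the log2 fold changes were -0.08 for Nfia, -0.15 for Nfib and 0.01 for Nfix, and 0.30 for Slc1a2, 0.13 for Slc1a3, 0.63 for S100b and -0.20 for Gfap, and no member was called (smallest edgeR adjusted p 0.0556).

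**Figure D2:**
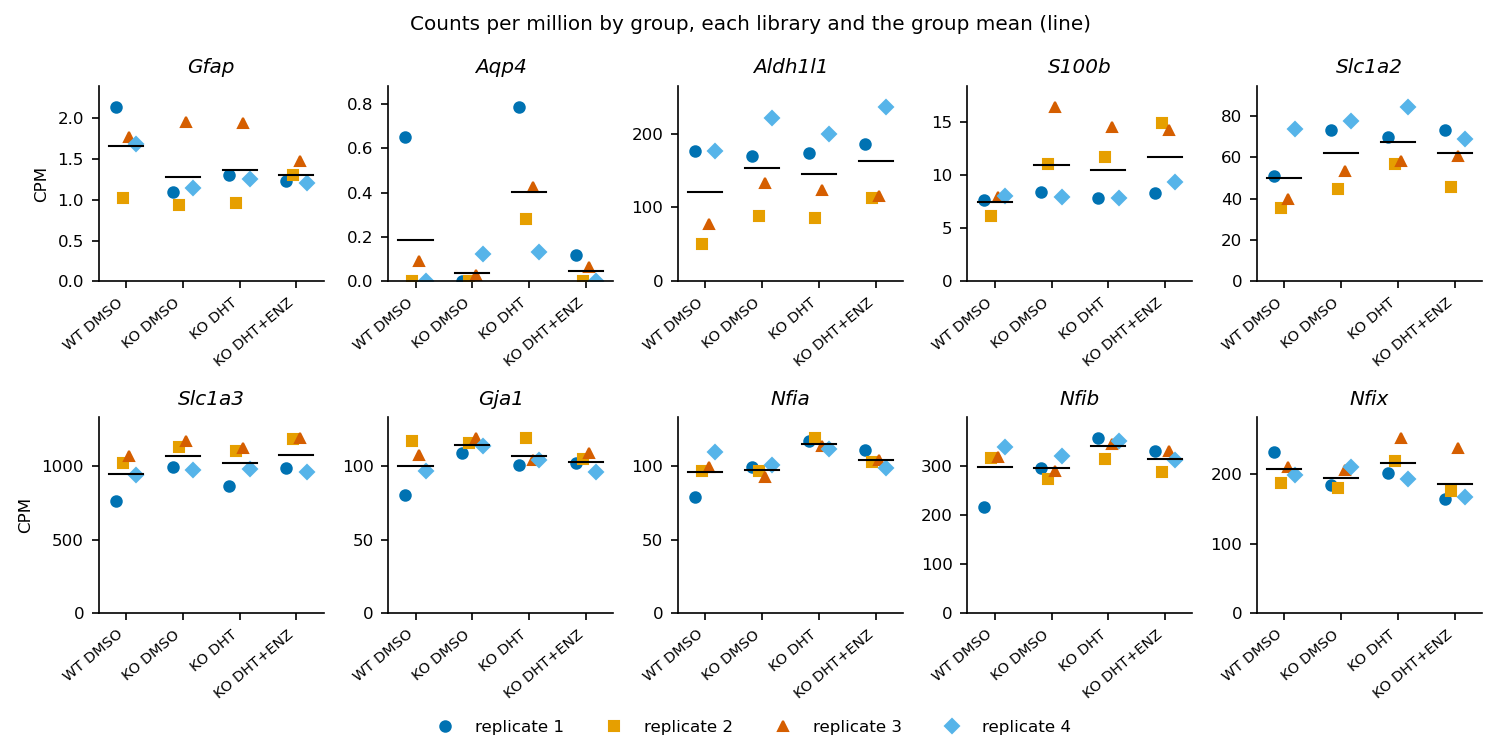
CPM of each of the 10 genes (one panel each, axis from 0) by group; each point is 1 library, marked by replicate number, and the line is the group mean. Nfia is at 112 to 119 CPM in KO DHT, above KO DMSO (92.4 to 101), and Aldh1l1 spreads from 50.8 to 236 CPM within groups.

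KO DHT was set against KO DMSO to ask what the androgen does in cells with targeted Chd1. Mean levels of all 3 NFI genes were higher with DHT and those of 4 of the 6 tested astrocyte markers were lower, and none of the 9 tested members was called by edgeR, against 0.0% of all genes. Only Nfia was at an unadjusted p under 0.05, as were 8.0% of all genes.

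Nfia had 99.4, 96.8, 92.4 and 101 CPM in KO DMSO and 117, 119, 114 and 112 CPM in KO DHT. The 2 groups did not overlap, which held for 0.754% of all genes in this direction. All 4 pairs were higher with DHT, by 0.16 to 0.30 on the log2 scale, as were 11.3% of all genes. The log2 fold change was 0.25 (SE 0.08, 95% interval 0.07 to 0.42; edgeR adjusted p = 0.606). Nfib had 296, 273, 290 and 321 CPM in KO DMSO and 356, 314, 344 and 351 CPM in KO DHT. It was also higher in 4 of 4 pairs, with 1 KO DMSO library (321 CPM) above 1 KO DHT library (314 CPM), and its log2 fold change was 0.21 (SE 0.10; edgeR adjusted p = 0.625). Nfix had 184, 181, 206 and 210 CPM in KO DMSO and 202, 219, 252 and 194 CPM in KO DHT, higher in 3 of 4 pairs. Its log2 fold change was 0.14 (SE 0.09; edgeR adjusted p = 0.71). Leaving out each library in turn gave 0.22 to 0.27 for Nfia, 0.14 to 0.24 for Nfib and 0.1 to 0.22 for Nfix.

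The differences between these libraries moved with transcript length, and the NFI transcripts are long. Weighted by its transcripts, Nfia is 7697 bases long, more than 97.6% of tested genes, Nfib 6805 bases (96.2%) and Nfix 4381 bases (83.9%), against a median of 2403 bases. Over 9747 genes, the rank correlation between length and the KO DHT minus KO DMSO difference was 0.10, 0.66, 0.53 and 0.41 in replicates 1 to 4. These values are a description, because all genes of a pair come from the same libraries. When each library was corrected for its trend on length, the log2 fold changes fell to 0.09 for Nfia (SE 0.08), 0.08 for Nfib (SE 0.09) and 0.09 for Nfix (SE 0.09), each with an edgeR adjusted p of 1.0. The other length alternative did not lower them alike: with each gene's mean transcript length in each library as an offset, the values were 0.23 for Nfia, 0.16 for Nfib and 0.18 for Nfix. With the trend correction Slc1a2, the longest member at 9665 bases, went from 0.13 to -0.06. What lies behind the trend on length was not tested.

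**Figure D3:**
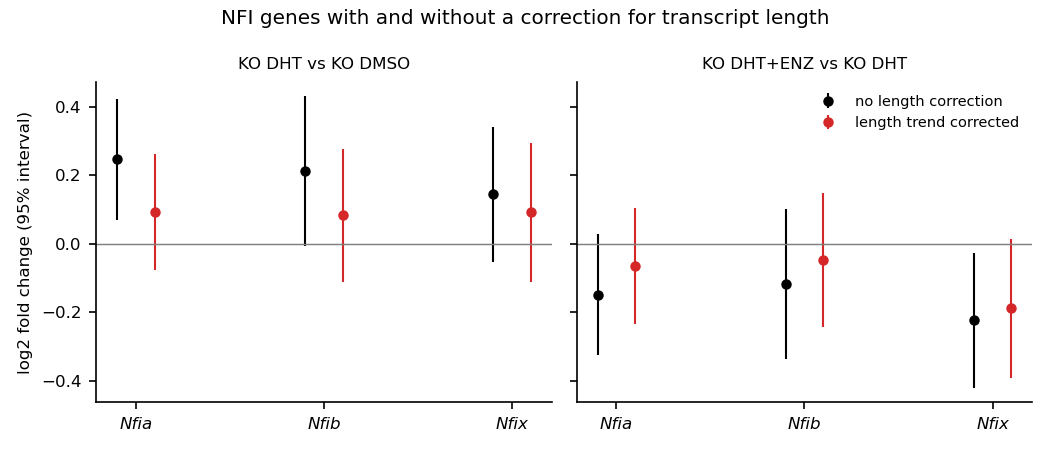
Log2 fold changes of the 3 NFI genes with 95% intervals for KO DHT against KO DMSO (left) and KO DHT+ENZ against KO DHT (right), before (black) and after (red) the length trend of each library was taken out. The correction takes Nfia from 0.25 to 0.09 on the left and from -0.15 to -0.06 on the right.

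The astrocyte markers showed no shared direction with DHT. Slc1a2 had 69.7, 56.7, 58.3 and 84.5 CPM in KO DHT, a log2 fold change of 0.13 (95% interval -0.07 to 0.34). Slc1a3 had 863 to 1128 CPM (-0.07, interval -0.20 to 0.05) and Gja1 101 to 119 CPM (-0.09, interval -0.25 to 0.07). Aldh1l1, at 174, 85.1, 124 and 200 CPM, followed KO DMSO closely pair by pair, with a log2 fold change of -0.07 (interval -0.36 to 0.22). The value was -0.05 for S100b (interval -0.40 to 0.30) and 0.09 for Gfap (interval -0.39 to 0.57).

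KO DHT+ENZ was set against KO DHT to ask what blocking the androgen receptor changes in DHT-treated cells. Both comparisons use the KO DHT libraries, so opposite signs in them are partly built in. All 3 NFI genes had lower means with enzalutamide and no member was called, against 3.48% of all genes. Nfix, at 164, 176, 238 and 167 CPM in KO DHT+ENZ, was lower than KO DHT in 4 of 4 pairs, as were 14.2% of all genes. Its log2 fold change was -0.22 (SE 0.09; edgeR adjusted p = 0.244), and it was the only member at an unadjusted p under 0.05, against 15.7% of all genes. Nfia had 111, 103, 104 and 98.9 CPM, all below the lowest KO DHT library at 112 CPM; 2.97% of all genes were lower without overlap. Its log2 fold change was -0.15 (SE 0.08; edgeR adjusted p = 0.422). Nfib had 331, 287, 330 and 312 CPM, also lower in 4 of 4 pairs, with a log2 fold change of -0.12 (SE 0.10; edgeR adjusted p = 0.665). Here the rank correlation of the difference with transcript length was 0.20, -0.59, -0.30 and -0.35 in the 4 pairs, and with the length trend correction the values were -0.19 for Nfix, -0.06 for Nfia and -0.05 for Nfib. With the length offset Nfix (-0.26, edgeR adjusted p = 0.345) and Nfia (-0.23, adjusted p = 0.265) lay further from 0, and Nfib was at -0.04. Without KO DHT replicate 1 the value for Nfib was -0.05.

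The 6 tested astrocyte markers had values on both sides of 0, 3 each, with edgeR adjusted p of 0.558 or above. Aldh1l1 had 186, 113, 115 and 236 CPM in KO DHT+ENZ, a log2 fold change of 0.16 (95% interval -0.13 to 0.45). S100b had 8.3, 14.9, 14.2 and 9.34 CPM, a log2 fold change of 0.16 (interval -0.19 to 0.52). Both values depended on 1 library: without KO DHT+ENZ replicate 2 each was 0.03. Slc1a3, at 960 to 1190 CPM, had a log2 fold change of 0.08 (interval -0.04 to 0.21). Slc1a2, at 45.8 to 73.5 CPM, was at -0.11 (interval -0.32 to 0.09), and at -0.03 without KO DHT+ENZ replicate 4. Gja1 was at -0.06 (interval -0.21 to 0.1), and Gfap, at 1.21 to 1.48 CPM, at -0.02 (interval -0.5 to 0.46).

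KO DHT+ENZ against KO DMSO shows what enzalutamide and DHT do together, and no member was called, against 2.94% of all genes. Gja1 was the member with the smallest p. It had 109, 116, 119 and 114 CPM in KO DMSO and 102, 105, 109 and 96.4 CPM in KO DHT+ENZ, lower in 4 of 4 pairs, as were 15.6% of all genes. The log2 fold change was -0.15 (SE 0.07; edgeR adjusted p = 0.419). Among the NFI genes the log2 fold changes were 0.1 for Nfia (95% interval -0.08 to 0.28), 0.1 for Nfib (-0.12 to 0.31) and -0.08 for Nfix (-0.28 to 0.12). Of the other astrocyte markers, S100b was at 0.11 (-0.24 to 0.47), Aldh1l1 at 0.09 (-0.2 to 0.38) and Gfap at 0.07 (-0.41 to 0.55). The 2 transporters were nearly level, Slc1a2 at 0.02 (-0.19 to 0.22) and Slc1a3 at 0.01 (-0.11 to 0.14).

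**Figure D4:**
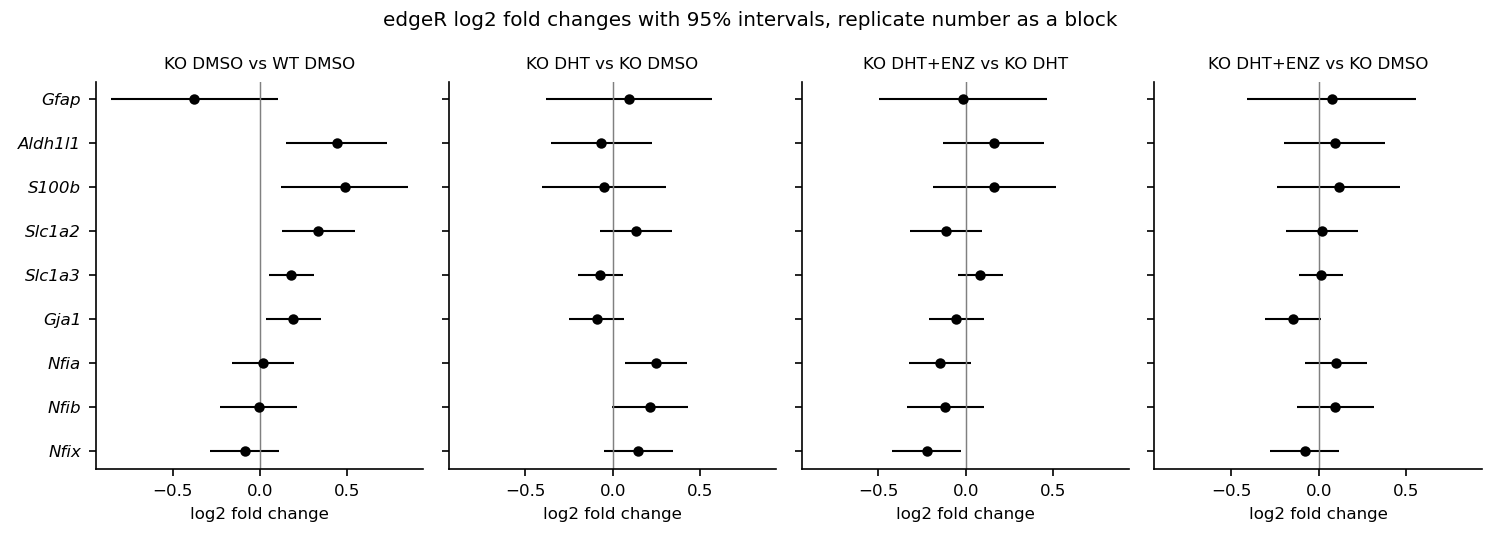
Log2 fold change (points) and 95% interval (bars) of the 9 tested genes in the 4 comparisons of groups, from edgeR with replicate number as a block. In KO DMSO against WT DMSO 5 astrocyte markers have intervals above 0, and in KO DHT against KO DMSO Nfia does (0.07 to 0.42). Nfix has an interval below 0 in KO DHT+ENZ against KO DHT. These intervals carry no adjustment for the number of genes tested. Of all tested genes, 7.83%, 8.0% and 15.7% were at an unadjusted edgeR p under 0.05 in these comparisons, in that order.

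Aqp4 had too few counts to be tested. Its estimated counts were 14, 0, 3.0 and 0 in WT DMSO replicates 1 to 4, and 0, 0, 1.4 and 3.9 in KO DMSO. In KO DHT they were 27, 9.0, 14 and 4.8, and in KO DHT+ENZ 3.9, 0, 2.1 and 0.5. Each KO DHT library thus held more than any KO DMSO or KO DHT+ENZ library, while WT DMSO replicate 1 held 14. The gap was narrow: KO DHT replicate 4 had 4.8 counts (0.13 CPM) and KO DMSO replicate 4 had 3.9 (0.121 CPM). The shares of all genes without overlap, 0.754% higher with DHT and 2.97% lower with enzalutamide, cover tested genes only. Aqp4 is not among these, and no share was taken for genes with so few counts. In the 5 libraries with an Aqp4 count of 0, such a count allows up to 0.0883 to 0.0922 CPM (3 counts of the library), from counting error alone. When all genes with any count were tested, the edgeR adjusted p for Aqp4 was 0.782 for KO DHT against KO DMSO and 0.0704 for KO DHT+ENZ against KO DHT.

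Some of these genes differed between the biological replicates, about as often as genes at large. With group means taken out, 4 of the 9 tested members (44.4%) differed between the 4 replicate numbers (edgeR F test, adjusted p under 0.05), as did 44.1% of all genes. The 4 were the astrocyte markers Aldh1l1, Slc1a2, Slc1a3 and S100b. The median distance from the lowest to the highest replicate was 0.34 on the log2 scale for the 9 members and 0.40 for all genes. Aldh1l1 had the widest, 1.34 on the log2 scale or 2.53-fold (adjusted p = 1.76e-05). It averaged 176 CPM in replicate 1, 84.3 in replicate 2, 112 in replicate 3 and 209 in replicate 4. All 8 libraries of replicates 1 and 4 (169 to 236 CPM) were above all 8 of replicates 2 and 3 (50.8 to 133 CPM). Slc1a2 went the same way, with 51.1 to 84.5 CPM in replicates 1 and 4 and 35.3 to 60.5 in replicates 2 and 3 (0.76 on the log2 scale; adjusted p = 0.000118). Slc1a3 was ordered the other way: its 8 libraries of replicates 1 and 4 (763 to 995 CPM) were all below those of replicates 2 and 3 (1020 to 1190 CPM), a distance of 0.34 on the log2 scale (adjusted p = 0.000778). S100b was also higher in replicates 2 and 3, with a median of 13 CPM (6.18 to 16.4) against 7.96 (7.67 to 9.34) in replicates 1 and 4 (0.69 on the log2 scale; adjusted p = 0.00913). The 2 glutamate transporters thus stood in opposite order across replicates.

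Nfia and Nfib had the smallest distances between replicates among the tested members. The distance between replicates was 0.07 on the log2 scale for Nfia (adjusted p = 0.891), 0.15 for Nfib (0.47) and 0.25 for Nfix (0.0868). Gja1 (0.22, adjusted p = 0.0789) and Gfap (0.76, adjusted p = 0.0641) did not pass either. With libraries corrected for their trend on transcript length, all 3 NFI genes passed, at 0.31, 0.32 and 0.37, and S100b did not (0.53, adjusted p = 0.0614), which made 6 of 9 members against 38% of all genes. With the length offset Nfib was the NFI gene that passed (0.44, adjusted p = 0.00695), among 5 of 9 members against 38.4% of all genes. Marker sums of other cells moved with the replicates as well. The 12 neuron markers summed to 452, 358, 286 and 485 TPM on average in replicates 1 to 4, in the direction of Aldh1l1 and Slc1a2; Map2 made up most of this sum, and the markers Stmn2, Neurod6, Neurod2, Gad2 and Slc17a7 were each at 0 in 1 to 5 libraries. The 12 oligodendrocyte lineage markers summed to 1336, 1518, 1482 and 1315 TPM and the 16 progenitor markers to 7226, 7901, 8329 and 7769 TPM, in the direction of Slc1a3 and S100b. Olig1 and Olig2 made up most of the oligodendrocyte lineage sum, and Fabp7 and Vim most of the progenitor sum. The part of other cells in the differences between replicates was not tested, and neither was that of litter.

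**Figure D5:**
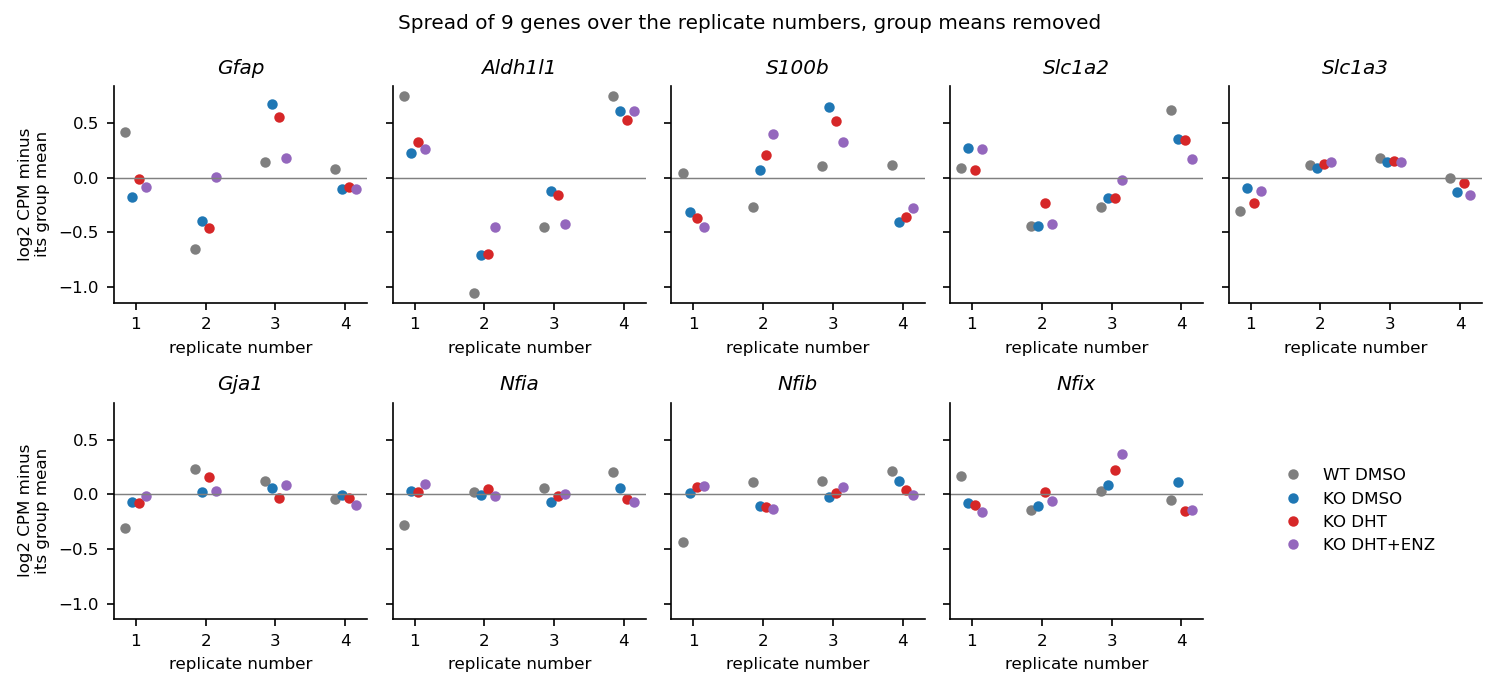
Log2 CPM of the 9 tested genes minus the mean of their group, by replicate number; each point is 1 library, coloured by group. Aldh1l1 and Slc1a2 lie high in replicates 1 and 4, Slc1a3 lies high in replicates 2 and 3, and Nfia stays near 0 apart from WT DMSO replicates 1 and 4.

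Other genes of the astrocyte programme, listed by name, gave few calls between groups. Of 30 further astrocyte markers, 29 were tested. None was called for KO DMSO against WT DMSO or for KO DHT against KO DMSO; the smallest p belonged to Pla2g7 (log2 fold change 0.44, edgeR adjusted p = 0.475) and Mlc1 (-0.14, adjusted p = 0.617). With enzalutamide 2 rose, against 1.57% of all genes higher than in KO DHT and 0.854% higher than in KO DMSO. Apoe, the lipid carrier secreted by astrocytes, rose by 0.87 on the log2 scale (SE 0.13) against KO DHT (edgeR adjusted p = 0.00302) and 0.87 against KO DMSO (adjusted p = 0.00205), and Ppp1r3c, a glycogen-targeting subunit of protein phosphatase 1, by 0.32 (adjusted p = 0.026) and 0.34 (adjusted p = 0.0191). The list's median was 0.00 in both, as was that of all genes against KO DHT. The same list was at high levels throughout, with Glul at 374 and Mlc1 at 329 TPM on average, whereas Gjb6, the connexin 30 gene of mature astrocytes, was at 0 in 10 of 16 libraries. Between replicates 22 of the 29 differed, against 44.1% of all genes. Among them were Dio2, the thyroid hormone activating deiodinase (1.41 on the log2 scale from lowest to highest replicate, edgeR adjusted p = 2.47e-06), Cbs (0.66, adjusted p = 1.8e-05) and Aldoc (0.87, adjusted p = 2.55e-05). The list's median distance was 0.38, and that of all genes 0.40.

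Of 32 genes of gliogenic signals and transcription factors, 31 were tested. With enzalutamide 2 fell, against 1.92% of all genes lower than in KO DHT and 2.09% lower than in KO DMSO. They were Dnmt1, the maintenance DNA methyltransferase, by 0.40 on the log2 scale (SE 0.10; edgeR adjusted p = 0.0321 against KO DHT) and Ezh2, the Polycomb histone methyltransferase, by 0.25 (SE 0.06; adjusted p = 0.0388). Against KO DMSO the falls were 0.41 (adjusted p = 0.0307) and 0.30 (adjusted p = 0.0167). Both enzymes are known for restraining glial genes in early progenitors and for acting in dividing cells, and all 10 listed mitosis markers fell in the same 2 comparisons, with medians of -0.56 and -0.61. Against KO DHT the smallest p were those of Cenpa (-0.57), Top2a (-0.64), Mki67 (-0.69) and Ccnb1 (-0.55; edgeR adjusted p of 0.000421 to 0.000699). Against KO DMSO they were those of Cenpa (-0.69), Ccnb1 (-0.64), Kif20a (-0.70) and Bub1b (-0.63; edgeR adjusted p of 9.51e-05 to 0.000644). The part of these genes, and of the higher mitochondrial share of all 4 KO DHT+ENZ libraries (4.31% to 4.5%), in the changes of Apoe, Ppp1r3c, Dnmt1 and Ezh2 was not tested. None of the 31 was called in the other 2 comparisons; the smallest p were those of the cytokine gene Clcf1 (-2.03, adjusted p = 0.475) and the STAT feedback gene Socs3 (-0.33, adjusted p = 0.611). Of the 20 reactive astrocyte genes, 16 were tested and none was called between groups. Vim (1839 TPM), Cp (104), Cd44 (23.0) and B3gnt5 (20.9) had the highest means of this list, and C3 (0.18) and Lcn2 (0.0412) were among the lowest. None of 16 progenitor markers was called between groups. Of the 8 tested neuron markers, Gad1, the GABA-synthesising enzyme, rose in KO DHT+ENZ against KO DMSO (0.53, SE 0.12; edgeR adjusted p = 0.0293), and no other neuron marker was called between groups. None of the tested oligodendrocyte lineage (7), microglial (3), endothelial (5), pericyte, meningeal and fibroblast (2) or ependymal (4) markers was called between groups. Between replicates 11 of the 31 gliogenic genes, 8 of the 16 reactive genes, 9 of the 16 progenitor markers and 6 of the 8 neuron markers differed, against 44.1% of all genes. Without the replicate block, the calls of Apoe, Ppp1r3c, Dnmt1, Ezh2 and Gad1 were lost (0 of 29, 0 of 31 and 0 of 8 called), and the mitosis calls went from 10 to 4 against KO DHT and from 10 to 6 against KO DMSO.

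Across the 16 libraries the members fell into no single pattern. Pearson r of log2 CPM is given as a description, because libraries share replicate numbers and length trends. It was 0.86 between Nfia and Nfib, 0.87 between Aldh1l1 and Slc1a2, 0.74 between Slc1a3 and both S100b and Gja1, and -0.51 between Aldh1l1 and Slc1a3. Nfix did not track its relatives (-0.03 with each). Among the 9740 genes that averaged 10 CPM or more, those most like Nfia were Gria4 (0.91), Phtf2 (0.89) and Sox11 (0.88), and those most like Nfib were Celf2 (0.93), Zfp141 and Sox11 (0.92 each). For Nfix they were Thrap3 (0.87), Smg6 (0.84) and Zrsr1 (0.83). Aldh1l1 was most like Nsg2 (0.97), Akr1b10 (0.94) and Pgpep1 (0.92), and Slc1a2 most like Chl1 (0.97), Ppargc1a (0.96) and Gm6145 (0.94). Slc1a3 was most like Ttpa (0.97), Ryk and Elovl5 (0.95 each), S100b most like Slc38a3 (0.96), Thrsp and Tmcc3 (0.94 each), and Gja1 most like Stt3a (0.90), Nudt21 and Mtrex (0.89 each). Gfap, with its low counts, reached 0.85 with Adam15, 0.80 with Prelid1 and 0.79 with Ccdc136.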

How the data were processed

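Polyadenylated RNA (RNA integrity number above 8) of 16 cultures was sequenced as 150 bp read pairs, per the labels' protocols. The authors deposited estimated counts and TPM per transcript for each sample, per the file headers, made with kallisto on GRCm39 according to the submitters' processing notes; the kallisto version and the annotation release are not given in the sources used here. Of 146190 transcripts, 135007 were matched to 49166 genes by identifier, and counts and TPM were summed per gene. Rounded counts were tested in edgeR 4.0.16 (R 4.3.3; TMM, filterByExpr, quasi-likelihood F test, 16971 genes) in 1 model of 4 group means with replicate number as a block, and p-values were adjusted by Benjamini-Hochberg over all genes; adjusted p under 0.05 was called. CPM used TMM library sizes, and SE and 95% intervals come from the fit. Libraries with the same replicate number were taken as pairs, although the sample titles give a number and no pairing. The deposited counts also carry a name prefix that goes with the replicate number. Deviations from group means of same-numbered libraries correlated at 0.16 to 0.79 over 9747 genes, above the low limit of 0.1 set for pairing. Only 10 of 16 libraries were closest to one of their own number, so the pairing remains an assumption. Common biological variation was 0.122 with the block and 0.212 without. The 10 genes and all lists were chosen with earlier results of these data known. The rule for named genes was all 10 members in each comparison (Aqp4, not tested, is given once) and, from other lists, up to 4 called genes with the smallest p, or up to 2 where none was called; the progenitor, reactive and other-cell lists without a call, and calls between replicates beyond the further astrocyte markers, are given as counts. Alternatives were no block, DESeq2 1.42.0 and its size factors, no filter, a length offset, a length trend correction (loess, span 0.3) and leaving out each library. Scripts were tested on simulated data.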

Additional observations from a re-analysis of the deposited data

Results flagged for a closer look

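Nfix in KO DHT+ENZ had 1 library far from the other 3: replicate 3 held 238 CPM, against 164, 176 and 167 CPM in replicates 1, 2 and 4. Among 36 sets of 4 libraries examined (9 genes in 4 groups) this was the only one with such a gap. Chance gives such a gap in about 1 in 20 sets, so 1 among 36 is no more than chance gives. Replicate 3 was also the highest Nfix library of KO DHT, at 252 CPM. Without KO DHT+ENZ replicate 3 the log2 fold change of Nfix against KO DHT was -0.31.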

How the results depend on the processing

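No member was called in the 4 comparisons of groups under any alternative, except 1 (Aldh1l1, KO DMSO against WT DMSO) with no filter on low counts. All genes called, main count first, were as follows. For KO DMSO against WT DMSO there were 0 (1329 at an unadjusted p under 0.05), 44 with no filter, 9 with DESeq2, 1 with the length offset and 0 to 15 leaving out each library (3 without WT DMSO replicate 1, 15 without replicate 4). For KO DHT against KO DMSO there were 0 (1358 unadjusted; DESeq2 0), 8 with no filter and 0 to 1 leaving out each library. For KO DHT+ENZ against KO DHT there were 591, 45 with no replicate block, 1031 with DESeq2, 270 with the length offset and 169 (without KO DHT+ENZ replicate 4) to 1480 (without WT DMSO replicate 1). For KO DHT+ENZ against KO DMSO there were 499, 43 with no replicate block, 820 with DESeq2, 288 with the length offset and 220 (without KO DMSO replicate 4) to 1247 (without WT DMSO replicate 1). Members called between replicates were 4 of 9 (44.1% of all genes), 6 of 9 with DESeq2 (48.4%), 6 of 10 with no filter (23.9%), 5 of 9 with the length offset (38.4%), 6 of 9 with the length trend correction (38%) and 4 to 7 leaving out each library (7 of 9 without WT DMSO replicate 1, with 54.3% of all genes). Of 788 values of single members in the 4 comparisons, 34 changed sign, all with an adjusted p of 0.656 or above. With the length offset Nfia (-0.02) and Nfib (0.04) changed sign against WT DMSO, as did Gfap (0.07) for KO DHT+ENZ against KO DHT. With the length trend correction Nfib was 0.02 against WT DMSO, S100b 0.03 and Slc1a2 -0.06 for KO DHT against KO DMSO, and Slc1a2 -0.08 for KO DHT+ENZ against KO DMSO. With no filter Nfib was 0.01 against WT DMSO, and with no replicate block Slc1a2 was 0.0 for KO DHT+ENZ against KO DMSO; the block changed no call of a member. Leaving out each library gave, for KO DMSO against WT DMSO, -0.08 to 0.09 for Nfia, -0.15 to 0.07 for Nfib and -0.16 to 0.01 for Nfix. For KO DHT against KO DMSO it gave -0.15 to 0.01 for Aldh1l1, -0.01 to 0.24 for Gfap and -0.13 to 0.07 for S100b. For KO DHT+ENZ against KO DHT it gave -0.19 to 0.08 for Gfap. For KO DHT+ENZ against KO DMSO it gave -0.04 to 0.17 for Aldh1l1, -0.1 to 0.21 for Gfap, -0.02 to 0.23 for S100b, -0.05 to 0.1 for Slc1a2 and -0.02 to 0.05 for Slc1a3. The cause of these shifts was not tested. Low counts limit Gfap and Aqp4 most.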
